A study of Mus musculus with 36 samples.

Results

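Inflammasomes are protein complexes that sense infection or tissue damage and activate inflammatory caspases. A sensor protein (NLRP3, NLRC4 or AIM2) recruits the adaptor ASC, encoded by Pycard, which gathers caspase-1, and caspase-1 cuts pro-interleukin-1β, pro-interleukin-18 and gasdermin D. Cut gasdermin D forms pores in the cell membrane, which release the cytokines and can kill the cell by pyroptosis. Mouse caspase-4, often called caspase-11, binds bacterial lipopolysaccharide inside the cell and cuts gasdermin D without a sensor of this kind, and caspase-8 starts apoptosis and can also cut gasdermin D. In the brain, microglia, the resident macrophages, are the best known site of these complexes, and transcription of Nlrp3 and of the cytokine genes ("priming") is a step before assembly. Transcript levels alone do not show assembly, cleavage or pore formation, none of which was measured.

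The genes described are Nlrp3, Nlrc4, Aim2, Pycard, Casp1, Casp4, Casp8 and Gsdmd. They were found by their mouse Ensembl identifiers, and all 8 had a row among the 55421 genes of the count table. Of these, 7 passed the filter on low counts that left 19478 genes for testing. Nlrc4 did not pass it.

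RNA was sequenced from right hippocampal slices of 18 mice that were 16 months old when the slices were taken. WT mice were C57BL/6, and T41B mice carry human APP with the London and Swedish mutations from a Thy1 cassette (Thy1-hAPPLond/Swe, Line 41), which drives expression mainly in neurons. For 3 months, from 13 months of age, all mice were gavaged with vehicle (VEH) or BD10-2 (PTX-BD10-2 in the labels), a small molecule that partially activates TrkB and TrkC, receptors for neurotrophins. Slices of either kind were frozen at once after theta-burst stimulation (10 bursts of 4 pulses at 100 Hz, 200 ms apart, repeated 3 times) or after a sham procedure that took as long, so every sample, sham included, had been cut and held as a slice. The groups held 4 mice each for WT VEH sham, WT VEH stimulated, T41B VEH sham and T41B VEH stimulated slices. WT BD10-2 groups held 3 mice each, sham and stimulated, and T41B BD10-2 groups held 5 mice each. For 14 mice both a sham and a stimulated slice were sequenced.

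Depth ran from 11597555 to 28125842 expected counts per library, with a median of 18082415. Thy1, whose cassette the transgene uses, was at 253 to 403 CPM in the 14 WT samples and at 1034 to 2506 CPM in the 18 T41B samples, so no sample went against its genotype label. CPM scales each count to the TMM-adjusted library size. Neuron, astrocyte and oligodendrocyte markers were present in every group. Each of the 8 batches in the labels held a single treatment, so treatment and batch cannot be told apart. Genotype is partly confounded with batch too: 5 batches held both genotypes, E held WT mice alone, and G and H held T41B mice alone. For 4 mouse and stimulation combinations 2 libraries were summed. Thy1 was at 918 and 1937 CPM in the 2 stimulated libraries of Mouse1592. The first value lies below the range of the summed T41B samples and above that of WT samples. Those libraries also differed in Nlrp3, at 56.6 against 98.4 CPM, and in Casp4, at 5.49 against 9.24 CPM. That they come from the same mouse is known from the labels alone. In the other pairs Thy1 was at 1077 and 1017, 328 and 344, and 348 and 315 CPM. Members differed there too, such as Casp1 at 0.962 and 2.28 CPM in sham slices of Mouse1565. Without the first stimulated library of Mouse1592, all members kept the calls given here for stimulated T41B BD10-2 slices. Ttr, a choroid plexus gene, exceeded 50 CPM in 6 samples, all from vehicle-treated mice. They were the stimulated slices of Mouse1509 and Mouse1513 (WT, batch E) and both slices of Mouse1551 and Mouse1553 (T41B, batch G). Fits without those samples thus also drop batch G and the stimulated slices of batch E, and the 2 cannot be told apart. Calls that change without those samples are given with the results.

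Promoter sequence is shown for the pair of members that rose most steadily on stimulation, Nlrp3 and Casp4, for Pycard, called lower in all 4 combinations of genotype and treatment, and for Casp1, called lower in the 2 WT combinations. Each line gives the 250 bases before a RefSeq transcription start, 5′ to 3′ on the gene's strand, in build GRCm38.p6: chr11:59541319-59541568 (+ strand) for Nlrp3, chr9:5308599-5308848 (+ strand) for Casp4, chr7:127993868-127994117 (− strand) for Pycard and chr9:5298267-5298516 (+ strand) for Casp1. Capitals mark matches to the NF-κB consensus in Nlrp3 and Casp4 and to the PU.1 core GAGGAA in Pycard and Casp1, read on either strand.
Nlrp3: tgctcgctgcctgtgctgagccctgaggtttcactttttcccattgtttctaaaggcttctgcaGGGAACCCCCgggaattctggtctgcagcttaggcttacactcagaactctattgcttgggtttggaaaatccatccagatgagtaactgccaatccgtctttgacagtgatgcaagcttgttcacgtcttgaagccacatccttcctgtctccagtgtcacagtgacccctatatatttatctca
Casp4: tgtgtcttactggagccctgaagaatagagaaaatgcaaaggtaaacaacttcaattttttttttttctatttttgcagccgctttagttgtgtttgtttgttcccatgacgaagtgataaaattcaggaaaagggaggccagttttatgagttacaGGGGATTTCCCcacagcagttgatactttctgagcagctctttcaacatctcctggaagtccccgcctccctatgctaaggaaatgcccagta
Pycard: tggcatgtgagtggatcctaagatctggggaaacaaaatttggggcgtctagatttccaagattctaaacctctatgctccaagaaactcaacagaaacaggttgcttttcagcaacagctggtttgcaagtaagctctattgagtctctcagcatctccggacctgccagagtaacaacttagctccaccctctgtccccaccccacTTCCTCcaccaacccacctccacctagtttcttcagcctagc
Casp1: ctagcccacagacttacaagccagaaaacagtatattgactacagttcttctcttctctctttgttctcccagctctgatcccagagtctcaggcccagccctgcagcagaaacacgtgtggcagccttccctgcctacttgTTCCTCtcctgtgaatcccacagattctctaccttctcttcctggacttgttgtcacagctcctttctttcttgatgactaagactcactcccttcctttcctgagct
NF-κB is a transcription factor of inflammatory priming, and PU.1 is a transcription factor of myeloid cells. The Nlrp3 window held an NF-κB consensus match whose leftmost base lies at -186, where -1 is the base just before the start. In the Casp4 window, overlapping NF-κB matches on both strands began at -93 and -92. The consensus was present in 3.9% of the 32851 promoter windows of this length in the RefSeq table. The PU.1 core began at -42 in Pycard and at -108 in Casp1, and 23.3% of all windows held it. Aim2 held the PU.1 core at -140 and -113, and the second Nlrp3 window at chr11:59542436-59542685 (+ strand), held it at -220, -129 and -36. Windows were matched for 7 of the 8 genes, and Gsdmd was not searched. The windows of Nlrc4 and Casp8 held no match to any of the 6 motifs searched. The other motifs were AP-1 (TGANTCA, in 6.7% of all windows), the interferon-stimulated response element (GAAANNGAA, 7.1%), the gamma-activated site (TTCNNNGAA, 7.0%) and the TATA box core (TATAAA, 12.4%), and none of the windows searched held one of these. All motifs were read on both strands. A match is a run of letters and not a measured binding site.

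On the chromosomes of GRCm38, in the GENCODE M21 annotation, Casp1 (chr9:5298517-5307265) and Casp4 (chr9:5308828-5336783) lie on the same strand with 1562 bases between them. Nlrp3 lies at chr11:59541568-59566956, Nlrc4 at chr17:74425438-74459142, Aim2 at chr1:173350879-173466040, Casp8 at chr1:58795374-58847503 and Gsdmd at chr15:75862327-75867408. Pycard (chr7:127989708-127993867) shares 485 bases of exon with Gm45205 on the opposite strand. The strand setting of the counting is not given in the sources used here, so reads in those bases may not be told apart. Gm45205 ran from 4.31 to 22.6 CPM and was not called in any of the 4 stimulation comparisons, with log2 fold changes of 0.26 to 0.90.

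Levels differed widely between members. Per kilobase of annotated exon, the mean in WT VEH sham slices was 2.37 CPM for Nlrp3, 1.32 for Casp1, 0.768 for Aim2, 0.566 for Casp8, 0.503 for Gsdmd, 0.323 for Casp4, 0.317 for Pycard and 0.0309 for Nlrc4. The length used is the union of exons over all annotated transcripts, and the order depends on it. It was 3800 bases over 2 transcripts for Pycard and 1497 bases of 1 transcript for Casp1. In stimulated T41B BD10-2 slices, on the same scale, Nlrp3 stood at 22.5, Casp4 at 3.98 and Gsdmd at 3.00, while Casp1 was at 1.23 and Pycard at 0.307. Casp4 thus went from the lower end of the order in one group to the second place in the other, and Casp1 from the second place to below Casp4, Gsdmd, Casp8 (2.16) and Aim2 (1.27). Nlrc4, the sensor for bacterial flagellin and secretion systems through NAIP proteins, was at 0 to 0.405 CPM, with 11 counts at most and 3 of 32 samples at 0. It did not pass the filter on low counts, and its differences are not analysed here.

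**Figure D1:**
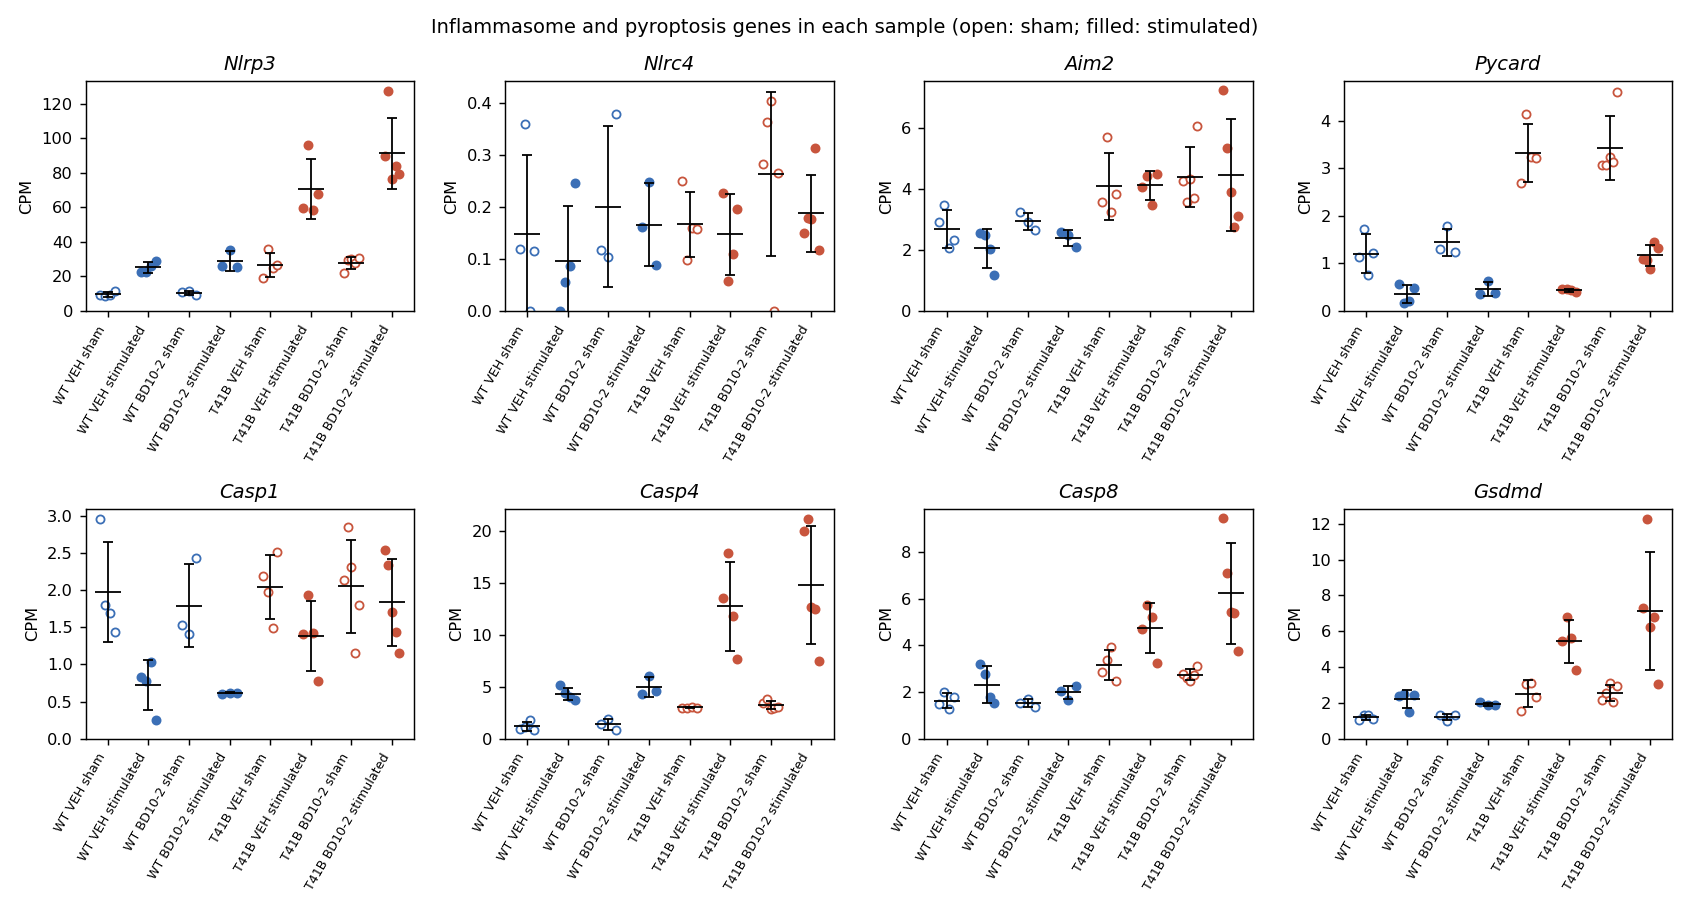
CPM of each gene in each sample (points; open for sham, filled for stimulated slices, blue for WT and red for T41B) across the 8 groups, with the mean and SD as black bars; each vertical axis starts at 0 and has its own range. Nlrp3 and Casp4 are higher in all stimulated groups than in the matched sham groups, Pycard is lower, and Nlrc4 stays under 0.41 CPM.

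Theta-burst stimulation addresses which transcripts follow activity that induces long-term potentiation. Stimulated slices held more Nlrp3 and Casp4 and less Pycard than sham slices in all 4 combinations of genotype and treatment. Gsdmd was called higher in both T41B combinations, Casp8 in T41B BD10-2 slices, and Casp1 was called lower in both WT combinations; differences between combinations were tested separately, as interactions, and none passed. Aim2 was called in none. In WT VEH slices, 2 of 7 tested members were higher and 2 lower, where 8.21% of all genes tested were higher and 4.1% lower. In T41B VEH slices 3 were higher and 1 lower, against 11.7% and 9.83% of all genes. WT BD10-2 slices had 2 higher and 2 lower, against 6.29% and 2.58%, and T41B BD10-2 slices had 4 higher and 1 lower, against 13.3% and 9.52%. A gene was called at an adjusted p under 0.05 in edgeR's quasi-likelihood test with Benjamini-Hochberg adjustment over all genes. Overlap of groups and counts of mice with a change in 1 direction are given as a description. The share of all genes that separate or move in this way was not counted. The member median log2 fold change was 0.51, 0.59, 0.39 and 1.18 in that order of groups, beside -0.01, -0.05, -0.01 and -0.04 over all genes. The median hides the split, since members moved both ways.

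Among the sensors, Nlrp3 rose in every group. In WT VEH mice the 4 sham values were 8.43, 9.07, 9.49 and 11.5 CPM and the 4 stimulated values 22.6, 22.8, 26.2 and 29.1 CPM. All stimulated samples lay above all sham samples. The log2 fold change was 1.38 (SE 0.19, adjusted p = 4.58e-06). In T41B VEH mice Nlrp3 was at 19.2, 24.7, 26.5 and 35.9 CPM in sham slices and at 58.5, 59.9, 67.8 and 96.1 CPM in stimulated slices, a log2 fold change of 1.41 (SE 0.18, adjusted p = 7.4e-07). The groups again did not overlap, and the highest T41B sham value exceeded every stimulated WT VEH value. In BD10-2 mice the log2 fold change was 1.45 (SE 0.21, adjusted p = 2.09e-05) in WT and 1.72 (SE 0.16, adjusted p = 1.55e-09) in T41B slices. Within the 14 mice with both slices, Nlrp3 was higher in the stimulated slice in 14 of 14, with ratios of 2.33 to 4.24 and a median of 2.69.

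Aim2, the sensor of DNA in the cytosol, did not pass the test on stimulation. Its log2 fold changes were -0.37 and -0.31 in WT VEH and WT BD10-2 slices and 0.01 and 0.02 in T41B VEH and T41B BD10-2 slices, with 95% intervals that all included 0 and reached from -0.92 to 0.52. In WT BD10-2 slices the stimulated values of 2.10, 2.48 and 2.595 CPM lay below the sham values of 2.65, 2.92 and 3.23 CPM, while in the other 3 combinations the groups overlapped. Aim2 was lower in the stimulated slice of 6 of 6 WT mice, with ratios of 0.506 to 0.979, and higher in that of 6 of 8 T41B mice. The interaction of genotype and stimulation did not pass (edgeR adjusted p = 0.774 with VEH and 1 with BD10-2).

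Pycard, the adaptor through which NLRP3 and AIM2 engage caspase-1, moved against Nlrp3. In T41B VEH mice the sham values were 2.69, 3.20, 3.24 and 4.15 CPM, and the stimulated values were 0.391, 0.440, 0.454 and 0.454 CPM. No stimulated sample came near the sham range. The log2 fold change was -2.91 (SE 0.28, adjusted p = 7.94e-09). In WT VEH mice Pycard went from 0.754, 1.13, 1.21 and 1.73 CPM in sham slices to 0.165, 0.216, 0.492 and 0.556 CPM in stimulated slices, and fell by 1.74 on the log2 scale (SE 0.31, adjusted p = 0.000183). The groups did not overlap. These values rest on few reads, 3 to 12 counts per stimulated WT VEH sample and 6 to 10 per stimulated T41B VEH sample, against 43 to 84 in T41B VEH sham samples. In BD10-2 mice Pycard fell by 1.69 (SE 0.32, adjusted p = 0.000642) in WT and by 1.54 (SE 0.22, adjusted p = 3.45e-06) in T41B slices. It was lower in the stimulated slice of 14 of 14 mice, with a median ratio of 0.284 and a range of 0.0956 to 0.493.

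The caspase genes split. Casp1, the effector caspase of the complex, was at 1.44, 1.70, 1.801 and 2.96 CPM in WT VEH sham slices and at 0.246, 0.771, 0.834 and 1.04 CPM after stimulation. The groups did not overlap, and the log2 fold change was -1.41 (SE 0.34, adjusted p = 0.00543); without Mouse1509 it was -1.21 and missed the threshold (adjusted p = 0.0668). In WT BD10-2 slices Casp1 fell by 1.52 (SE 0.39, adjusted p = 0.0114), from 1.41, 1.53 and 2.44 CPM to 0.608, 0.620 and 0.621 CPM. That call was lost with the mouse as a block (log2 fold change -1.26, adjusted p = 0.104), with the first alone of same-label libraries (adjusted p = 0.0565), and when Mouse1565, Mouse1586 or Mouse1590 was left out (adjusted p of 0.0627, 0.05 and 0.0906). In T41B slices Casp1 did not pass, with log2 fold changes of -0.55 (95% interval -1.20 to 0.11) in VEH and -0.19 (-0.76 to 0.38) in BD10-2 mice. Over all genotypes it was lower in the stimulated slice of 12 of 14 mice.

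Casp4, the caspase of the non-canonical pathway, had the largest rise of the members in each combination. In WT VEH mice sham slices held 0.866, 0.949, 1.15 and 1.82 CPM and stimulated slices 3.75, 3.98, 4.35 and 5.14 CPM. In T41B VEH mice sham slices held 2.94, 2.96, 2.99 and 3.08 CPM and stimulated slices 7.61, 11.8, 13.5 and 17.9 CPM. The sham values of T41B mice lay close together while their stimulated values spread widely, and neither pair of groups overlapped. The log2 fold change was 1.85 (SE 0.31, adjusted p = 8.21e-05) in WT VEH, 2.09 (SE 0.27, adjusted p = 9.79e-07) in T41B VEH, 1.83 (SE 0.33, adjusted p = 0.000296) in WT BD10-2 and 2.18 (SE 0.24, adjusted p = 3.11e-08) in T41B BD10-2 slices. Casp4 was higher in the stimulated slice of 14 of 14 mice, with a median ratio of 4.05.

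Casp8, which starts apoptosis and also cuts gasdermin D, passed in T41B BD10-2 slices. There it went from 2.48, 2.59, 2.72, 2.78 and 3.12 CPM to 3.75, 5.40, 5.42, 7.13 and 9.46 CPM, without overlap, a log2 fold change of 1.18 (SE 0.21, adjusted p = 0.0001). In the other 3 combinations the log2 fold change was 0.39 to 0.59 with adjusted p of 0.0769 to 0.467. In T41B VEH slices it passed with batch as a covariate (adjusted p = 0.0351) and with the second alone of same-label libraries (0.0466). Casp8 was higher in the stimulated slice of 12 of 14 mice.

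Gsdmd, the pore-forming substrate on which both arms converge, rose in T41B slices. In T41B VEH mice it went from 1.56, 2.31, 3.06 and 3.14 CPM to 3.84, 5.45, 5.61 and 6.81 CPM, without overlap, a log2 fold change of 1.10 (SE 0.27, adjusted p = 0.00394). Without the samples with Ttr above 50 CPM, which leaves 2 mice in each of these groups, the log2 fold change was 1.26 and the adjusted p 0.0696. In T41B BD10-2 mice the sham values were 2.06, 2.14, 2.54, 2.91 and 3.12 CPM and the stimulated values 3.07, 6.24, 6.78, 7.27 and 12.3 CPM. Only Mouse1592, at 3.07 CPM, reached into the sham range, and the log2 fold change was 1.47 (SE 0.24, adjusted p = 3.2e-05). In WT slices the log2 fold change was 0.88 (SE 0.31, adjusted p = 0.0624) with VEH and 0.66 (SE 0.34, adjusted p = 0.244) with BD10-2. With VEH it passed with batch as a covariate (adjusted p = 0.0374) and without the first stimulated library of Mouse1592 (0.0481). Stimulated and sham samples did not overlap in either WT combination, though neither was called in the main fit and the WT BD10-2 groups held 3 samples each. Gsdmd was higher in the stimulated slice of 14 of 14 mice, with a median ratio of 2.07.

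**Figure D2:**
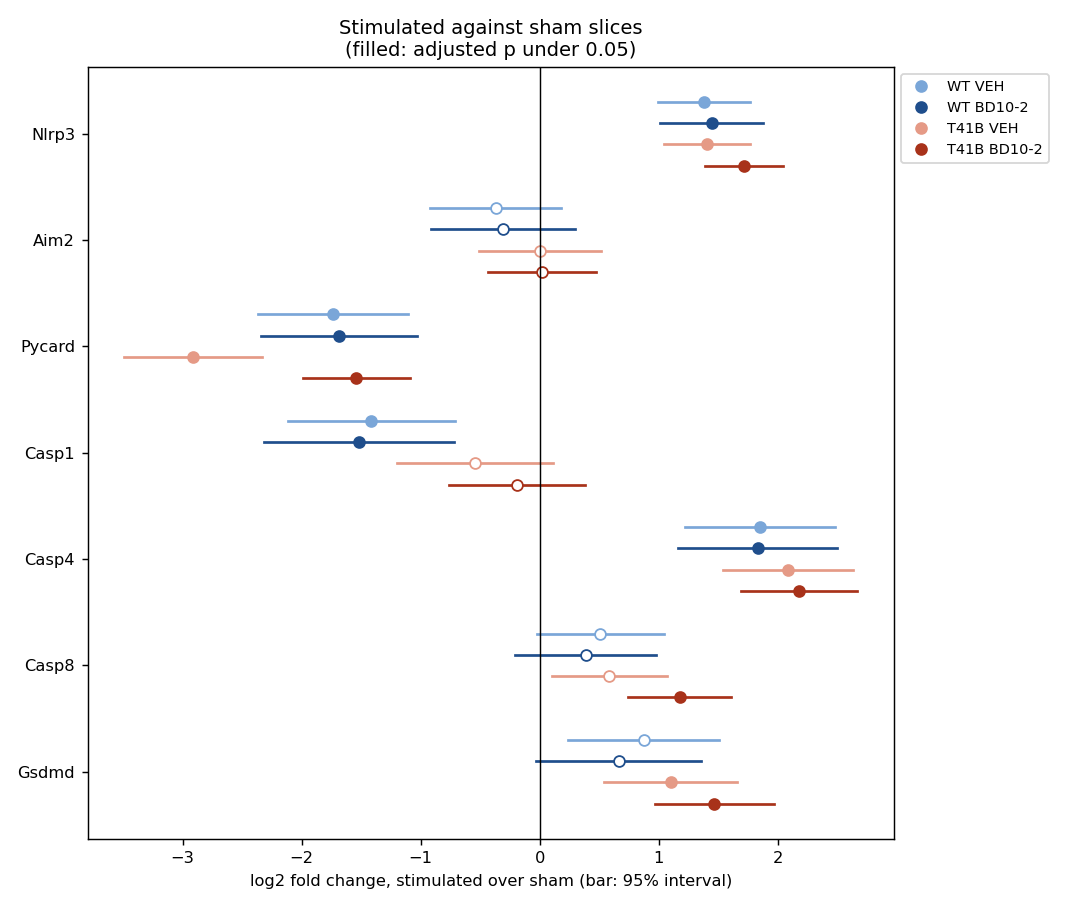
Log2 fold change of stimulated over sham slices for the 7 tested genes, by genotype and treatment (points, filled where the edgeR adjusted p is under 0.05; bars, 95% interval). Nlrp3 and Casp4 lie right of 0 in all 4, Pycard lies left of 0 in all 4 and reaches -2.91 in T41B VEH slices, and Aim2 lies around 0.

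**Figure D3:**
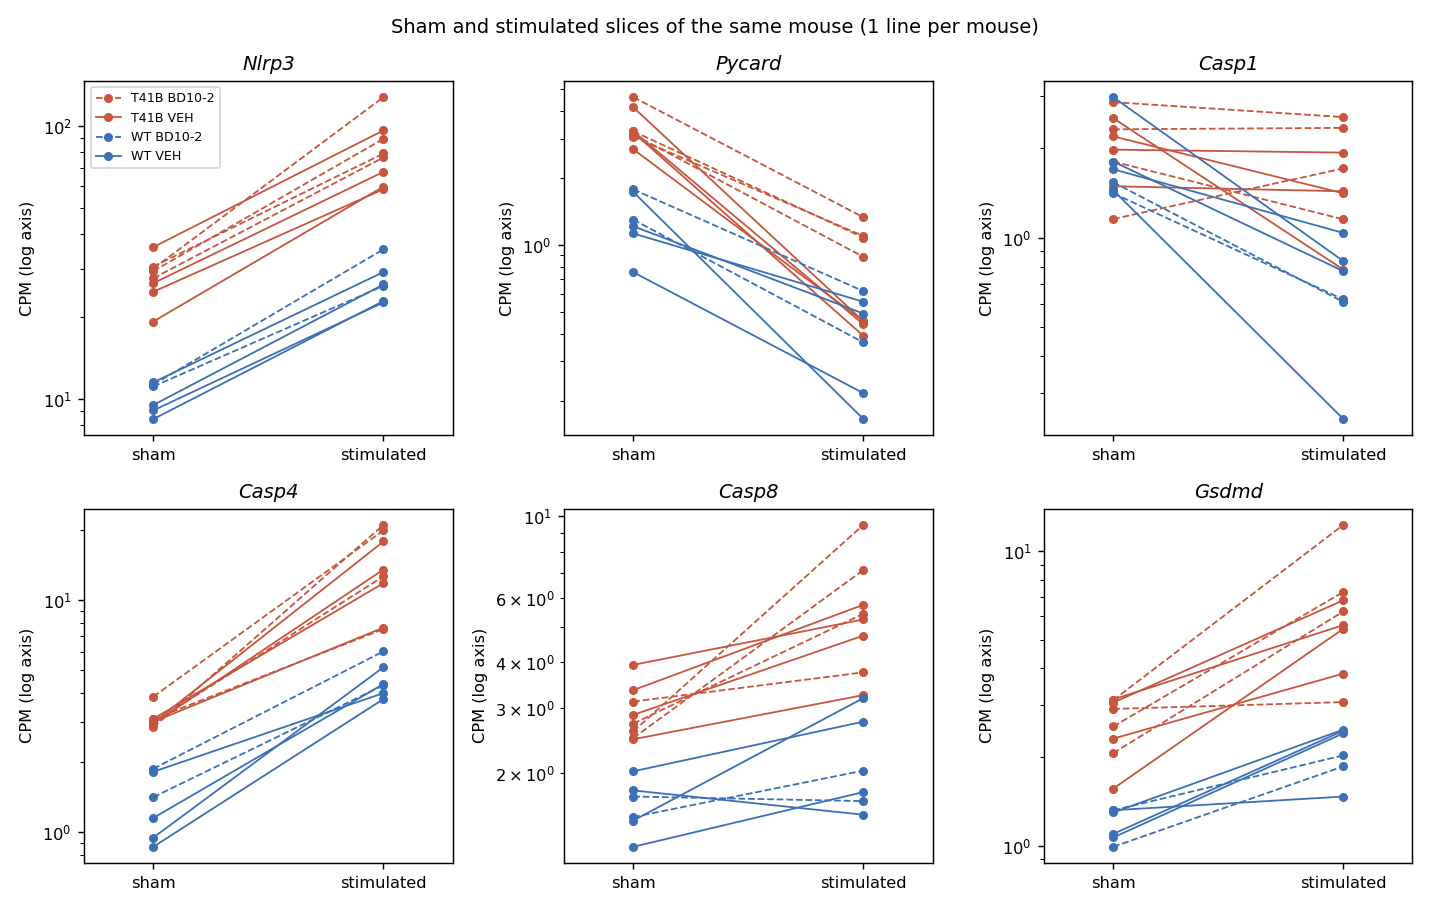
CPM on a log axis in the sham and the stimulated slice of each of the 14 mice with both (1 line per mouse; blue WT, red T41B, solid VEH, dashed BD10-2). Every line rises for Nlrp3, Casp4 and Gsdmd and every line falls for Pycard, while 12 of 14 lines fall for Casp1 and 12 of 14 rise for Casp8.

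Markers of microglia were measured beside these changes. Of 10 homeostatic microglia markers, such as Tmem119 and P2ry12, 8, 8, 7 and 8 were called lower on stimulation in WT VEH, T41B VEH, WT BD10-2 and T41B BD10-2 slices, and none higher, with median log2 fold changes of -1.38, -1.73, -1.59 and -1.36. In T41B VEH mice their summed level was 359 to 601 CPM in sham and 175 to 238 CPM in stimulated slices. The 12 pan-microglial and myeloid markers, such as Csf1r and C1qa, moved less, with medians of -0.36, -0.47, -0.32 and 0.04. In bulk samples fewer cells of a type and less RNA per cell cannot be told apart. Neutrophil markers summed to at most 0.636 CPM in any sample, none of the 10 passed the filter, and 7 of 10 were at 0 in all WT VEH sham samples. Monocyte and border macrophage markers summed to 0.799 to 6.60 CPM, and 1 of the 5 tested was called, in T41B BD10-2 slices. In WT VEH slices all 9 choroid plexus markers were called higher on stimulation, with a median log2 fold change of 3.41. Without the samples with Ttr above 50 CPM, which leaves 2 stimulated WT VEH mice, Nlrp3, Pycard, Casp1 and Casp4 were called in WT VEH slices. Of 8 astrocyte markers 3, 4, 0 and 3 were called higher and none lower, in the order of groups used for the microglia markers. Of 8 endothelial markers 1, 2, 1 and 2 were called higher and 3, 1, 2 and 3 lower. The part of these cell types in the members' changes was not tested.

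The 53 other genes of the pathway with a row in the table are given by the list they belong to. Among cytokine products and antagonists, 3, 4, 3 and 5 of 7 tested genes were higher in WT VEH, T41B VEH, WT BD10-2 and T41B BD10-2 slices and none lower. Il1b, the main substrate of caspase-1, stood at 0.31 ± 0.104 CPM in WT VEH sham and 50.8 ± 21.3 CPM in WT VEH stimulated slices (SD, n = 4 each). The difference was 7.32 on the log2 scale (SE 0.60, adjusted p = 1.1e-09). Il1rn, which encodes the interleukin-1 receptor antagonist, rose in parallel, with log2 fold changes of 8.71, 7.16, 7.77 and 9.48 in the same order. Il1a rose by 2.51 to 3.02. Il18, the other caspase-1 substrate, was at 6.01 ± 0.563 CPM in WT VEH sham and 5.93 ± 1.295 CPM in WT VEH stimulated slices (SD, n = 4 each) and was not called in any of the 4 combinations.

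Among priming regulators, 8, 8, 7 and 9 of 10 genes were higher and none lower. Irf1, an interferon response factor, rose by 1.74 to 1.98 on the log2 scale, Myd88, the adaptor of Toll-like receptors, by 1.27 to 1.89, and Tlr2, a receptor for bacterial lipopeptides, by 1.20 to 2.24. Among genes of activation and regulation, 3, 4, 3 and 4 of 10 were higher and 0, 1, 1 and 1 lower. Gbp5 and Gbp2, interferon-induced guanylate-binding proteins, led this list with log2 fold changes of 4.82 to 5.23 and 4.58 to 5.14. The lower gene was Card9, at -1.86, -1.48 and -1.63 in T41B VEH, WT BD10-2 and T41B BD10-2 slices; it averages under 1 CPM and was named after its values were seen. For cell death execution, 7, 9, 8 and 9 of 12 genes were higher and 0, 1, 0 and 1 lower. Mlkl, the pore-forming protein of necroptosis, rose by 2.06 to 3.99, Zbp1, a sensor of left-handed nucleic acids, by 2.32 to 3.76, and Cflar, an inhibitor of caspase-8, by 1.39 to 2.03. Gsdme, another gasdermin, was the lower gene, at -0.53 and -0.48 in T41B VEH and T41B BD10-2 slices. The other sensors were mixed, with 2, 2, 1 and 4 of 9 higher and 1, 3, 2 and 1 lower. Ifi204, an interferon-inducible DNA sensor, rose by 3.36 to 4.42, while Nlrp1b fell by 2.68, 2.22, 2.32 and 2.19; it too averages under 1 CPM and was named after its values were seen. Naip6, a partner of NLRC4, fell by 1.14 in T41B VEH and by 1.52 in WT BD10-2 slices, and Naip5 by 0.98 in T41B VEH slices. The Naip genes are near-identical copies between which reads may be split.

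**Figure D4:**
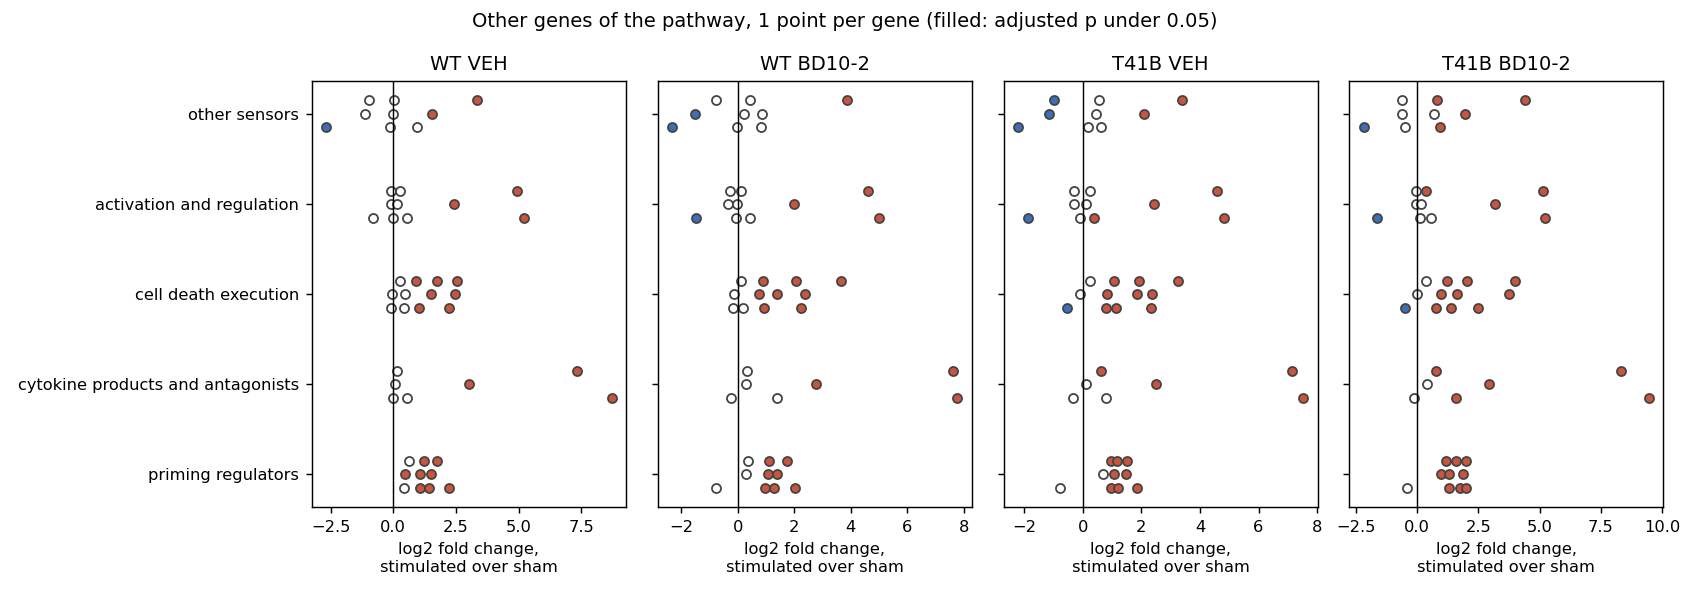
Log2 fold change of stimulated over sham slices for each tested gene of 5 pathway lists (1 point per gene; red, called higher; blue, called lower; open, not called), with 1 panel per combination of genotype and treatment and a horizontal range of its own in each. The points farthest right are Il1rn and Il1b in the list of cytokine products and antagonists, and Gbp5 and Gbp2 in that of activation and regulation.

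The T41B against WT comparison asks how the amyloid model differs. All 7 tested members had positive log2 fold changes in all 4 comparisons of genotype, and all calls were higher in T41B. In sham VEH slices 5 of 7 members were called higher, against 5.0% of all genes. Stimulated VEH slices also had 5, against 4.74%, sham BD10-2 slices 4, against 4.31%, and stimulated BD10-2 slices 7, against 8.19%. The median log2 fold change of the members was 1.08, 1.03, 1.07 and 1.57, beside 0.00, -0.03, 0.01 and -0.02 over all genes. Pan-microglial and myeloid markers were higher too: 12, 11, 12 and 12 of 12 were called, with medians of 1.97, 1.53, 1.75 and 1.81. Their summed level was 249 to 334 CPM in WT VEH sham and 610 to 1280 CPM in T41B VEH sham samples. The part of these cells in the members' difference was not tested.

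Nlrp3, Casp4 and Gsdmd were called in all 4 comparisons of genotype. For Nlrp3 the log2 fold change in sham VEH slices was 1.46 (SE 0.19, adjusted p = 5.61e-06), and it was 1.49, 1.40 and 1.66 in stimulated VEH, sham BD10-2 and stimulated BD10-2 slices. The sample values given above for VEH mice did not overlap between genotypes in sham or in stimulated slices. In BD10-2 mice sham slices held 9.15, 11.1 and 11.3 CPM in WT and 21.7, 27.6, 29.3, 29.99 and 30.5 CPM in T41B mice, again without overlap. Casp4 had log2 fold changes of 1.32 (SE 0.32, adjusted p = 0.00892), 1.56, 1.23 and 1.57, without overlap in any. Gsdmd had 1.08 (SE 0.31, adjusted p = 0.0313), 1.31, 1.07 and 1.87, also without overlap. Its sham VEH call was lost with any of Mouse1509, Mouse1513, Mouse1522, Mouse1524, Mouse1551 and Mouse1553 left out (adjusted p of 0.0514 to 0.128), in the fit of the compared groups alone (0.0673), with batch as a covariate (0.284) and without the samples with Ttr above 50 CPM (log2 fold change 0.71, adjusted p = 0.746). Without those samples its stimulated VEH call was lost too (0.145). Its sham BD10-2 call (adjusted p = 0.0369) was lost without Mouse1563, Mouse1565, Mouse1571 or Mouse1590 (0.0549 to 0.182), with batch as a covariate (0.123) and with the second alone of same-label libraries (0.0833). The Casp4 call was lost without Mouse1509 in sham VEH slices (0.0513) and without Mouse1565 or Mouse1590 in sham BD10-2 slices (0.0729 and 0.127).

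Pycard was higher in T41B mice in sham VEH slices (log2 fold change 1.47, SE 0.25, adjusted p = 0.000283), sham BD10-2 slices (1.25, SE 0.25, adjusted p = 0.00205) and stimulated BD10-2 slices (1.40, SE 0.30, adjusted p = 0.00183). In stimulated VEH slices the T41B values of 0.391 to 0.454 CPM lay within the WT range of 0.165 to 0.556 CPM, and the log2 fold change was 0.29 (95% interval -0.41 to 0.997, adjusted p = 0.751). Casp8 was called in 3 of 4 comparisons, with log2 fold changes of 0.95, 1.03 and 1.63 in sham VEH, stimulated VEH and stimulated BD10-2 slices; in sham BD10-2 slices it was 0.84 (adjusted p = 0.0564). The groups did not overlap in any of the 4. Its sham VEH call (adjusted p = 0.0226) was lost without Mouse1509, Mouse1522, Mouse1551 or Mouse1553 (adjusted p of 0.072 to 0.105). It was also lost with batch as a covariate (0.0695), in the fit of the compared groups alone (0.067), with the first alone of same-label libraries (0.0527) and without the samples with Ttr above 50 CPM (log2 fold change 0.71, adjusted p = 0.416). The stimulated VEH call was lost in the fit of the compared groups alone (0.0655). In sham BD10-2 slices Casp8 passed in that fit (0.0135), in DESeq2 (0.0341), without the samples with Ttr above 50 CPM (0.0346), without the first stimulated library of Mouse1592 (0.0363) and without Mouse1563 (0.0412).

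Aim2 was called in stimulated slices, at 0.98 (SE 0.26, adjusted p = 0.0195) with VEH and 0.90 (SE 0.27, adjusted p = 0.0267) with BD10-2. In stimulated VEH slices the WT values were 1.17, 2.03, 2.48 and 2.55 CPM and the T41B values 3.47, 4.04, 4.43 and 4.49 CPM, without overlap. The BD10-2 call was lost without any of Mouse1563, Mouse1564, Mouse1565, Mouse1571 and Mouse1586 (adjusted p of 0.0765 to 0.129), with batch as a covariate (log2 fold change 0.66, adjusted p = 0.17), in the fit of the compared groups alone (0.12) and with the first alone of same-label libraries (0.126). The VEH call was lost without Mouse1522, Mouse1524 or Mouse1551 (0.0504 to 0.0757) and without the samples with Ttr above 50 CPM (0.0642). In sham slices its log2 fold changes were 0.61 and 0.57 (adjusted p = 0.168 and 0.228). Casp1 was the member least separated by genotype in sham slices, at 0.04 (95% interval -0.60 to 0.69) with VEH and 0.23 (-0.43 to 0.88) with BD10-2. In stimulated BD10-2 slices it was at 0.608, 0.620 and 0.621 CPM in WT and 1.15, 1.44, 1.71, 2.34 and 2.54 CPM in T41B mice, a log2 fold change of 1.55 (SE 0.36, adjusted p = 0.00392). In stimulated VEH slices it was 0.91 (adjusted p = 0.139).

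Within the batches that hold both genotypes, 7 contrasts of T41B with WT samples could be formed, each with 1 or 2 samples a side and hence untested. They come from batches A, C, D and I. The sham and stimulated contrasts of A, C and I share mice, so the 7 are not independent. Nlrp3, Aim2, Casp4, Casp8 and Gsdmd were higher in T41B samples in 7 of 7, Pycard in 6 and Casp1 in 5. For Nlrp3 the difference ran from 0.94 to 1.63 on the log2(CPM + 1) scale. Without the samples with Ttr above 50 CPM, which leaves 2 T41B VEH mice, Nlrp3 and Pycard were the members still called in sham VEH slices, while Nlrp3 and Casp8 were in stimulated VEH slices; Casp4 then missed in both (adjusted p of 0.119 and 0.0548).

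**Figure D5:**
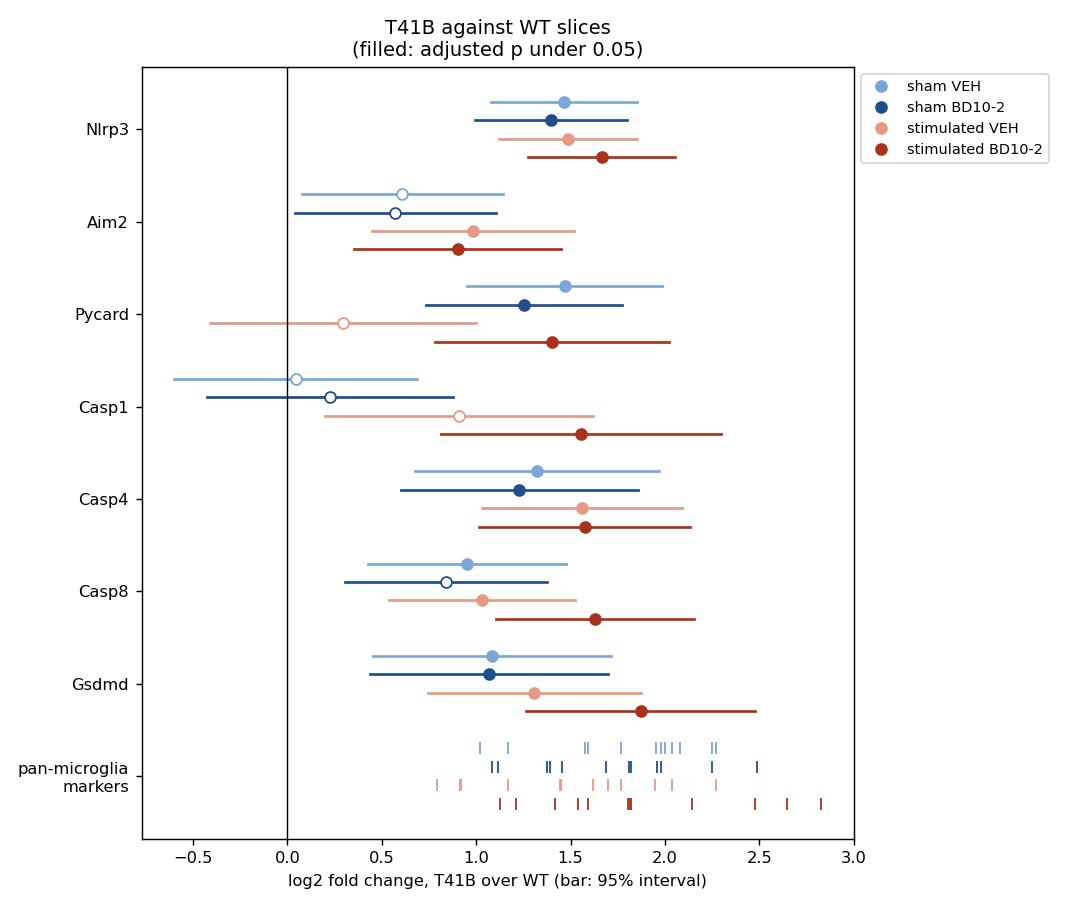
Log2 fold change of T41B over WT slices for the 7 tested genes (points, filled where the edgeR adjusted p is under 0.05; bars, 95% interval) in the 4 combinations of stimulation and treatment, with each of 12 pan-microglial and myeloid marker genes as a tick in the bottom row. Casp1 lies near 0 in sham slices, Pycard near 0.29 in stimulated VEH slices, and the marker genes span about the range of the members and above it.

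Other genes of the pathway were also higher in T41B slices, and none of them was called lower. Of 10 priming regulators 9, 9, 6 and 9 were higher in sham VEH, stimulated VEH, sham BD10-2 and stimulated BD10-2 slices. Tlr2 was higher by 3.05, 2.01, 2.65 and 2.36 on the log2 scale, and Irf8, a transcription factor of microglia, by 1.82, 2.08, 1.91 and 2.86. Of 9 other sensors 4, 4, 3 and 6 were higher, with Ifi204 at 2.60 to 3.16 and Naip2 at 1.71 to 2.43. Of 7 cytokine genes 2, 3, 1 and 3 were higher. Il1b was called in stimulated slices, at 2.81 (SE 0.37, adjusted p = 9.8e-06) with VEH and 3.11 (SE 0.41, adjusted p = 5.3e-06) with BD10-2. Of 12 genes of cell death execution 2, 6, 2 and 8 were higher, led by Zbp1 at 2.35 to 3.15, and 3 of 10 genes of activation and regulation were higher in each comparison.

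BD10-2 was compared with vehicle within each genotype and stimulation state. No gene was called in any of these 4 comparisons, so 0.0% of all genes and 0 of 7 members passed in edgeR. DESeq2 called no member in any of the 4, and over all genes it called 25 (0.128%) in stimulated WT slices and 0 in the other 3. In stimulated WT slices edgeR called 21 genes without Mouse1522 and 26 without Mouse1524, none of them a member. At an unadjusted p under 0.05, edgeR had 374, 1093, 431 and 759 genes in sham WT, stimulated WT, sham T41B and stimulated T41B slices, of which 0, 0, 0 and 2 were members. In the first 3 the members' log2 fold changes lay between -0.26 and 0.31. In stimulated T41B slices all 7 were above 0, from 0.12 to 1.41. Nlrp3 was 0.37 there (95% interval 0.04 to 0.71, adjusted p = 1).

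Pycard in stimulated T41B slices was the member that differed most with BD10-2. The 4 VEH values were 0.391, 0.440, 0.454 and 0.454 CPM and the 5 BD10-2 values were 0.883, 1.08, 1.10, 1.33 and 1.44 CPM. The groups did not overlap. The log2 fold change was 1.41 (SE 0.29, edgeR unadjusted p = 2.98e-05, adjusted p = 0.581), and it ranked 1 of 19478 genes by p in this comparison without passing the adjustment. Leaving out single mice gave 1.34 to 1.49, with adjusted p of 0.305 to 1, and DESeq2 gave 1.42 with an adjusted p of 0.158. In sham T41B slices the same difference was 0.04 (95% interval -0.41 to 0.49) and in stimulated WT slices 0.30 (-0.42 to 1.03). Batch and treatment cannot be told apart here. The homeostatic microglia markers summed to 175 to 238 CPM in stimulated T41B VEH and 185 to 371 CPM in stimulated T41B BD10-2 samples, and their part in the Pycard difference was not tested.

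Interactions asked whether the stimulation response differed by genotype or treatment. No gene passed in any of the 4 in edgeR, so 0.0% were called. DESeq2 called no member, and over all genes it called 1, 20, 0 and 1 for genotype with VEH, genotype with BD10-2, treatment in WT and treatment in T41B. For genotype with BD10-2, edgeR called 79 genes (0.407%) without Mouse1592 and 6 with the second alone of same-label libraries, none of them a member. At an unadjusted p under 0.05, edgeR had 1683, 846, 337 and 526 genes in the same order, and these included 1, 2, 0 and 1 members. For Pycard the T41B response was lower than the WT response by 1.17 on the log2 scale in VEH mice (SE 0.43, edgeR adjusted p = 0.492), and the BD10-2 response in T41B mice was higher than the VEH response by 1.37 (SE 0.36, adjusted p = 1). Casp1 differed by 1.33 between T41B and WT responses in BD10-2 mice (SE 0.48, adjusted p = 0.843) and by 0.87 in VEH mice (SE 0.47, adjusted p = 0.603). Casp8 differed by 0.79 between genotypes in BD10-2 mice (SE 0.36, adjusted p = 1). For Nlrp3 the 4 interaction values were 0.02, 0.27, 0.06 and 0.31, each with a 95% interval that included 0. The differences in calls between combinations described above were thus not shown to be differences in response.

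Across the 32 samples each member had its own closest genes by Pearson correlation of log2(CPM + 1), out of 16191 genes averaging at least 1 CPM. The samples share the 8 groups and their mice, so these values are a description. For Nlrp3 the closest were Slc15a3 (r = 0.985), Syk (0.980) and Gpr84 (0.978), and for Casp4 Srgn (0.978), Gna13 (0.978) and Hk2 (0.977). Gsdmd and Casp8 shared Ehd4 (0.973 and 0.933) and Sp110 (0.970 and 0.945). Gsdmd was also close to Oas1a (0.961) and Casp8 to Fam129a (0.933). Pycard was closest to Myo1f (0.965), Rasal3 (0.948) and Mlxipl (0.944). Aim2 (Apcdd1, 0.848; Rel, 0.837; Ston1, 0.829) and Casp1 (Atp13a5, 0.794; Anpep, 0.790) had no gene above 0.85.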

How the data were processed

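The authors deposited RSEM expected counts per gene (estimated read counts, unscaled, for 36 libraries). Per the submitters' processing notes, tools included cutadapt 1.8.1, STAR 2.7.6a, RSEM 1.3.1, featureCounts 1.6 and SAMtools 1.11, with GRCm38.p6 and mm10 as builds; the annotation release and strand setting are not given in the sources used here. RSEM divides reads between similar transcripts, so gene families are uncertain. Per the labels' protocols, libraries came from 200 ng of ribosome-depleted total RNA with a stranded kit.

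Symbols matched 55154 identifiers and not 267. Counts were rounded, and libraries with the same mouse and stimulation were summed, which left 32 samples. Genes were kept by filterByExpr (minimum count 10), scaled by TMM and fitted in edgeR 4.0.16 (R 4.3.3) with 1 coefficient for each group, for 16 comparisons. SE is the absolute log2 fold change over the root of F; for the lowest counts edgeR bounds its p by a Poisson test, so SE can be too small there. The fit was also run on simulated counts with known changes. These were drawn without mouse or batch effects, so the run does not test how the calls hold under them. Alternatives included DESeq2 1.42.0, the mouse as a block, batch as a covariate and leaving out mice.

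Same-numbered mice pair the slices by the labels: their deviations from group means correlated at 0.29 on average (0.05 to 0.55, 14 pairs), against -0.08 between mice. Named genes were all members and, per pathway list, up to 4 called genes of at least 1 CPM with the largest change. Il18, Gsdme, Card9 and Nlrp1b were named outside this rule. The members and lists were chosen with earlier results of these data known.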

Additional observations from a re-analysis of the deposited data

Results flagged for a closer look

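Within groups of 4 or 5 samples, the highest or lowest value lay unusually far from its neighbour (by Dixon's criterion at 95%) in 3 of 48 sets of gene and group, where about 1 in 20 would be flagged by chance. Nlrp3 in stimulated T41B BD10-2 slices was at 127 CPM in Mouse1564, with the next sample at 89.5 CPM. Pycard in sham T41B BD10-2 slices was at 4.61 CPM in Mouse1592, with the next at 3.24 CPM. Gsdmd in stimulated WT VEH slices was at 1.47 CPM in Mouse1522, with the other samples at 2.41 to 2.48 CPM.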

How the results depend on the processing

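Counts of called members in 6 of the 8 stimulation and genotype comparisons, and 0 called members in all treatment and interaction comparisons, stayed within 1.5 times under the settings that change more than a single mouse, and no call reversed. For genotype in sham VEH slices the count of 5 became 3 in the fit of the compared groups alone, 3 with batch as a covariate and 2 without samples with Ttr above 50 CPM, while the share of all genes called went from 6.24% to 3.08%, 1.81% and 1.28%. For genotype in stimulated VEH slices it went from 5 to 2 without those samples (all genes 5.79% to 1.17%), an alternative chosen after seeing the data, as was leaving out the first stimulated library of Mouse1592. Leaving out single mice gave 2 to 5 for genotype in sham VEH slices and 2 to 4 in sham BD10-2 slices (main count 4; 2 without Mouse1565 or Mouse1590). The lowest count in sham VEH slices, 2, came without Mouse1509, and 3 without Mouse1522, Mouse1551 or Mouse1553; the share of all genes was 3.12% without Mouse1509, and in sham BD10-2 slices 2.91% and 2.43% without Mouse1565 and Mouse1590, against 5.45%. The cause of these changes was not tested, and neither was the part of the smaller groups. With the mouse as a replicate block, 4, 4, 3 and 5 members were called on stimulation in WT VEH, T41B VEH, WT BD10-2 and T41B BD10-2 slices, beside 20.1%, 29.5%, 6.6% and 23.9% of all genes (12.3%, 21.5%, 8.87% and 22.9% without the block), and the pairing changed the call of no member but Casp1 in WT BD10-2 slices (log2 fold change -1.26, adjusted p = 0.104). Among single genes over all settings, 1270 values kept their side of the threshold, 49 fell short of it and 9 passed it newly. The 1270 include values not called in the main fit, among them all treatment values. The tally thus does not measure how steady the calls are. The lowest count in a sample was 0 for Nlrc4, 3 for Pycard and 4 for Casp1, which limits the precision of their values.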
